A study of Mus musculus with 10 samples.

Results

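The annexins are a family of proteins that bind acidic phospholipids in membranes when calcium is present. The 10 members described here (Anxa1, Anxa2, Anxa3, Anxa4, Anxa5, Anxa6, Anxa7, Anxa9, Anxa10 and Anxa11) were taken by gene symbol, as the brightest transcript cluster per gene among clusters with 1 symbol, from 19938 genes measured in mouse pancreas. All 10 were measured, and no filter on low values was applied. The platform was the Mouse Gene 1.0 ST array of Affymetrix, with probes spread over each transcript, and the deposited values are log2 intensities. There were 5 DKO and 5 Control samples, all on a mixed strain background. The DKO genotype, PDX1Cre,Mst1-/-,Mst2L/L, combines a null allele of the Hippo kinase MST1, lost in every cell, with a floxed allele of MST2 that is removed where Cre acts under the Pdx1 promoter, in cells descended from pancreatic progenitors. Stroma, vessels and immune cells of the DKO organ would thus lack MST1 alone. For the Control group the labels give no genotype beyond that word, and no ages are given. Nothing in the labels ties each array to an animal of its own, so every p-value reflects only the scatter of these arrays, which may be technical in part. The sex-linked gene Xist was 12.11 to 12.29 in DKO replicates 1 and 4 and Control replicates 2, 3 and 4. It was 5.13 to 5.75 in the other arrays, where the sex-linked gene Eif2s3y was 9.38 to 9.59. Each group thus held arrays of both sexes, in unequal numbers.

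Annexins share a conserved core of repeats that carries the calcium and lipid binding, and differ in an N-terminal head that binds partners such as S100 proteins. They are known for roles in exocytosis, endocytosis, membrane repair and the organisation of the cortical actin layer, all of which bear on a secretory gland. MST1 and MST2 start the Hippo cascade, which restrains the coactivators YAP and TAZ, which act through DNA-bound TEAD factors.

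Stk4, which codes for MST1, had a level of 5.13 ± 0.06 in DKO and 5.15 ± 0.09 in Control (SD, n = 5 each). These levels lay within 3.99 to 5.75, the range in which the sex-linked genes Xist, Eif2s3y, Uty and Kdm5d lay in arrays that do not express them, so the probe set gave no check of the labels. Stk3, the gene of MST2, was not analysed here. Acinar markers were bright in every array, with a mean over 10 genes of 11.71 to 12.21 in DKO and 12.23 to 12.41 in Control. DKO replicate 1 stood apart in hepatocyte markers, whose mean over 9 genes was 11.25, against 6.56 to 7.75 in the other 4 DKO arrays and 6.69 to 7.67 in Control. None of the 10 annexin genes lies on chromosome 2, which carries Stk4, or 15, which carries Stk3.

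Promoter sequences are shown for the 3 members whose window held a match to any of 3 short elements. RefSeq promoters (build GRCm38.p6, 250 bases before to 50 after the gene start) were at hand for 8 of the 10 members in 11 windows. They were searched on both strands for CATTCC, the core bound by TEAD factors, and, added after the values were seen, for the AP-1 element TGACTCA, printed here as its reverse complement where it matched the other strand, and the TATA box letters TATAAA. Matches are in capitals, and none overlapped another. The windows are chr8:62123144-62123443 (minus strand) for Anxa10, chr9:69453433-69453732 (plus strand) for Anxa2 and chr19:20390622-20390921 (minus strand) for Anxa1.
Anxa10: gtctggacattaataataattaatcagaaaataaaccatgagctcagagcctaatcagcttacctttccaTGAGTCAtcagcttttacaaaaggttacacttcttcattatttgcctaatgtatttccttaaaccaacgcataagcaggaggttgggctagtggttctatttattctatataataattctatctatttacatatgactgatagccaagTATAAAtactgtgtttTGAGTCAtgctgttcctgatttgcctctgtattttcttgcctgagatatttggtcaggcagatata
Anxa2: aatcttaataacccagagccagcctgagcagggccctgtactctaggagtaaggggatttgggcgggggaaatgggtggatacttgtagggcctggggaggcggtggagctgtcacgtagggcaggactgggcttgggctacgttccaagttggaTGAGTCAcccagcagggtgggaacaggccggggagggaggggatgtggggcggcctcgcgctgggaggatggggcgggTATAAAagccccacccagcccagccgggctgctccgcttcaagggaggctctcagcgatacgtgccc
Anxa1: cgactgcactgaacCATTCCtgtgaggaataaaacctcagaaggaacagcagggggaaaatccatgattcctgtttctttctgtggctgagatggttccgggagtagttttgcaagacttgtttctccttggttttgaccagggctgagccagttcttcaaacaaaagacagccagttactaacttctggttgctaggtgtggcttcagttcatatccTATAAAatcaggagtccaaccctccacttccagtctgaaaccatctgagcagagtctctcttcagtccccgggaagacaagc
The Anxa10 window held the AP-1 letters at 2 places, beginning 180 and 16 bases before the start, and the TATA letters beginning 32 bases before it. The Anxa2 window held the AP-1 letters 95 bases and the TATA letters 17 bases before the start. The Anxa1 window held CATTCC 236 bases and the TATA letters 32 bases before the start. CATTCC was thus in 1 of the 11 member windows and in 14.7% of all 32851 windows, the AP-1 letters in 2 of 11 and in 5.2%, and the TATA letters in 3 of 11 and in 13.6%. These are matches of letters within 300 bases, not sites of binding.

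The comparison set whole DKO pancreas against Control pancreas. Of the 10 members 5 were higher in DKO (Anxa10, Anxa3, Anxa9, Anxa5 and Anxa11), 0 were lower, and 5 did not pass (Anxa1, Anxa2, Anxa4, Anxa6 and Anxa7). The test was limma's moderated test, with p-values adjusted by Benjamini-Hochberg across the 19938 genes and a threshold of 0.05. By it 2.44% of all genes were called, 2.08% higher and 0.366% lower in DKO. All 10 members had a change above 0, as did 47.6% of all genes. The median log2 change was 0.20 over the members and -0.0064 over all genes. These background values cover genes of all levels, while 8 of the members remained when the dimmest 50% of genes were removed. No share was taken among genes as bright as the members. The median of the tested genes was 7.56 to 7.63 over the DKO arrays and 7.55 to 7.59 over the Control arrays. After subtraction of array medians all 10 changes stayed above 0, with a median of 0.16. In the 5 called members all 5 DKO arrays lay above all 5 Control arrays, a pattern found in 3.52% of all genes; in either direction, 4.8% had groups that did not overlap. Leaving out DKO replicate 3 kept all 5 calls, and leaving out any other array reduced them. Each of these fits had 1 array fewer. Without Control replicate 1, for example, limma called 385 genes in all, against 487 with all 10 arrays. Only Anxa3 was called without DKO replicate 5, Control replicate 2 or Control replicate 3. Anxa3 and Anxa9 were called without DKO replicate 1, DKO replicate 2, Control replicate 1 or Control replicate 5, Anxa3 and Anxa10 without DKO replicate 4, and 3 members (Anxa3, Anxa5 and Anxa9) without Control replicate 4. Over all genes 414 were higher and 73 lower in DKO, and 321 were higher and 125 lower after quantile normalization of the deposited values, or 271 and 103 after subtraction of array medians.

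**Figure D1:**
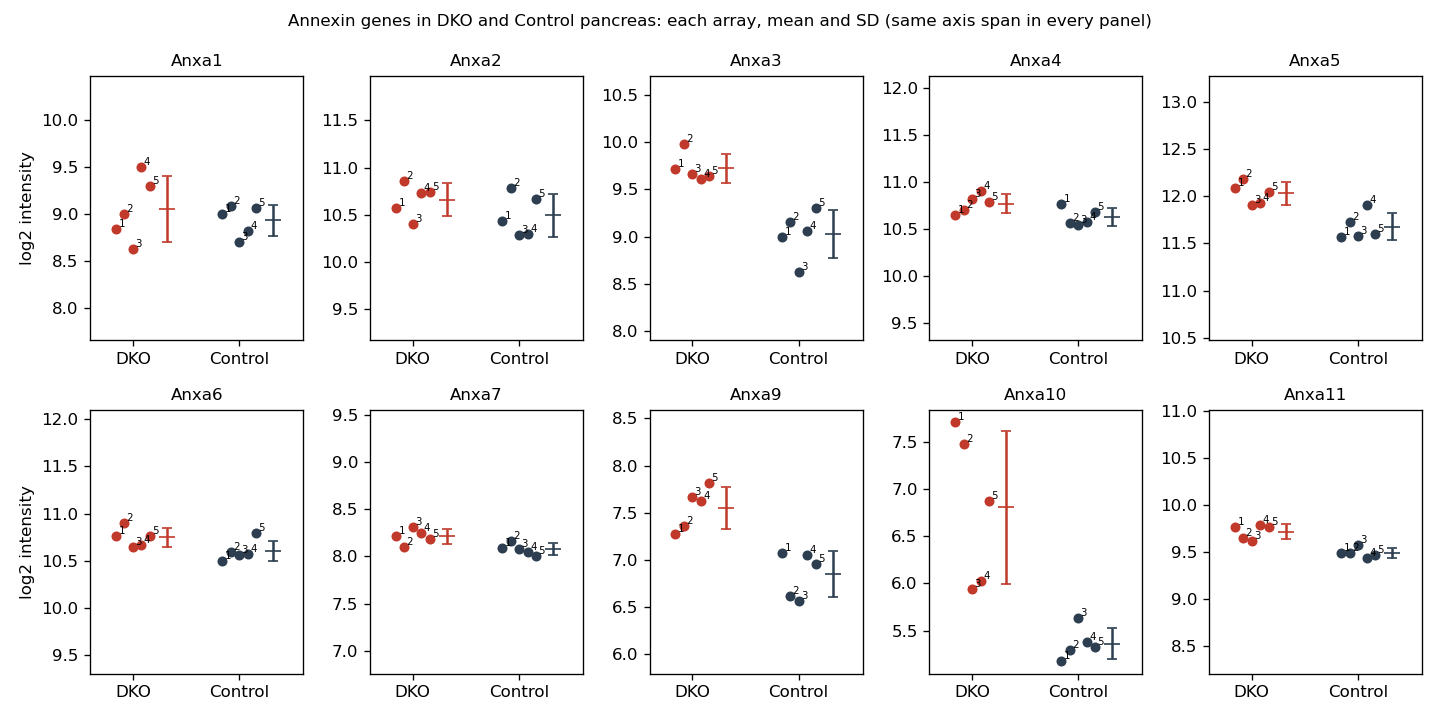
Log2 intensity of the 10 annexin genes in each array, DKO left and Control right, with replicate numbers beside the points and bars for mean and SD (n = 5 each); every panel spans the same number of log2 units. The groups do not overlap for Anxa3, Anxa5, Anxa9, Anxa10 and Anxa11, and Anxa10 has the widest DKO spread, 5.94 to 7.71.

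Anxa10, an annexin best known in humans from the surface epithelium of the stomach, changed most. Its levels were 7.71, 7.48, 5.94, 6.02 and 6.87 in DKO replicates 1 to 5, and 5.18, 5.30, 5.63, 5.38 and 5.32 in Control replicates 1 to 5. All 5 DKO arrays were above the highest Control array, but DKO replicates 3 and 4 by little and DKO replicates 1 and 2 by far. The means were 6.81 ± 0.81 in DKO and 5.36 ± 0.17 in Control (SD, n = 5 each), which is 2.72-fold more in DKO (log2 1.44 ± 0.32 SE, adjusted p = 0.0424). The DKO spread was wider than that of 99.0% of all genes. All Control levels lay within the range of unexpressed sex-linked genes given above (3.99 to 5.75), so the fold is taken against a level that cannot be told from background. The call ended on leaving out any of 8 arrays and held without DKO replicate 3 or DKO replicate 4. The adjusted p without 1 array ran from 0.0187 to 0.1045, the highest without Control replicate 2, while the change stayed between 1.22 and 1.66. Without DKO replicate 1 the change was 1.22 (adjusted p = 0.0653), and the call also ended with a trended and robust variance (0.0685), with unmoderated variance (0.1237), with the Xist level as a covariate (0.0672) and with both Control replicate 2 and DKO replicate 4 left out (0.0772).

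Gastric markers were set beside Anxa10. Of 7 measured gastric genes 0 were higher and 2 lower in DKO, Tff2, a trefoil peptide of mucous cells (-0.29, adjusted p = 0.0309), and Muc6, a gland mucin (-0.39, adjusted p = 0.0210). Tff2 averaged 12.75 in DKO and 13.03 in Control, a level among the brightest on the array, and Muc6 6.04 and 6.43. Whether either transcript came from gastric cells was not tested. The mean of the 7 genes was 6.91 to 7.18 in DKO and 7.08 to 7.30 in Control. Gkn1, Gkn2 and Muc5ac, which define gastric surface cells, averaged 6.29, 5.69 and 5.73 in DKO and 6.36, 5.72 and 5.80 in Control. The T and B cell markers (mean of 6 genes) stood at 6.75 and 6.79 in DKO replicates 1 and 2, the arrays with the most Anxa10, at 6.03 to 6.10 in the other 3 DKO arrays and at 6.09 to 6.62 in Control. In Control replicate 4, which had the 6.62, Anxa10 was 5.38. The part of these cells and of the hepatocyte transcripts in DKO replicate 1 in the Anxa10 result was not tested.

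**Figure D2:**
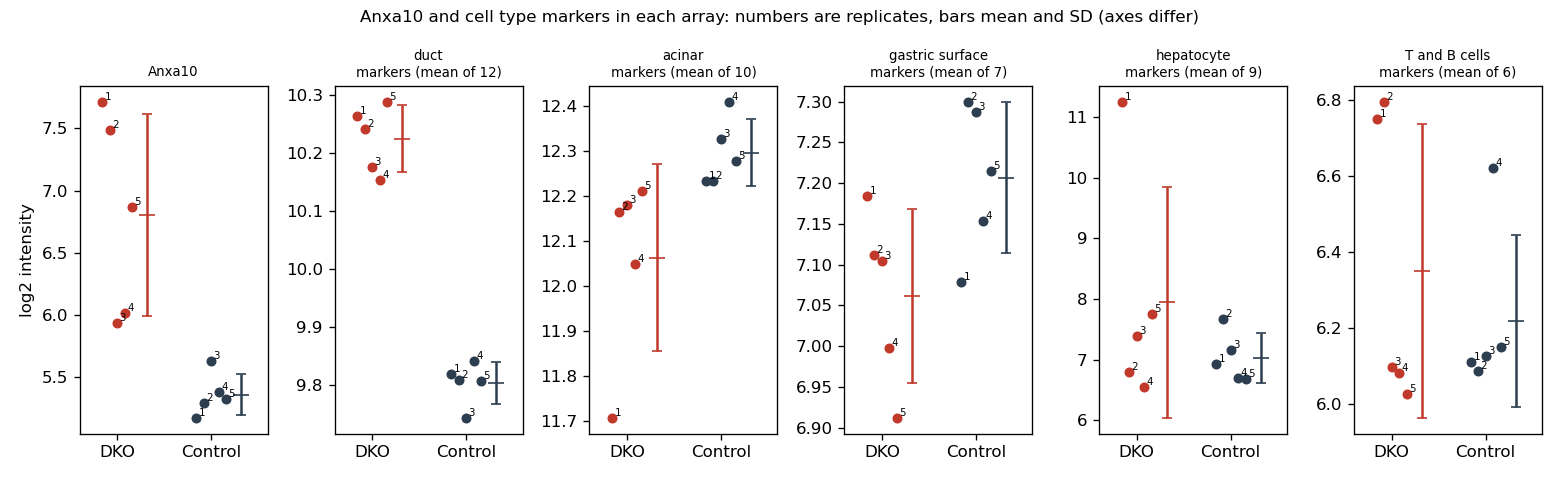
Log2 intensity of Anxa10 and the mean log2 intensity of 5 marker lists in each array, DKO left and Control right, with replicate numbers and bars for mean and SD (n = 5 each); the axes differ between panels. The duct means of all 5 DKO arrays lie above those of Control and the acinar means below, hepatocyte markers stand at 11.25 in DKO replicate 1 alone, and the gastric means are 6.91 to 7.18 in DKO and 7.08 to 7.30 in Control.

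Anxa3, an annexin abundant in neutrophil granules and also made by epithelia, had the smallest p of the family. Its levels were 9.71, 9.98, 9.66, 9.61 and 9.64 in DKO replicates 1 to 5, and 8.999, 9.15, 8.62, 9.05 and 9.30 in Control replicates 1 to 5. The lowest DKO array stood above the highest Control array, and Control replicate 3 was the lowest of its group. The means were 9.72 ± 0.15 in DKO and 9.02 ± 0.25 in Control (SD, n = 5 each), which is 1.62-fold more in DKO (log2 0.70 ± 0.12 SE, adjusted p = 0.0116). The call held without any 1 array, with adjusted p-values of 0.0121 to 0.0317. It ended only when Control replicate 2 and DKO replicate 4 were left out together (0.0528), where the change was 0.76. The mean of 6 neutrophil markers ran from 6.54 to 8.16 in DKO and from 7.38 to 8.25 in Control, and 0 of the 6 passed limma's test (0 higher and 3 lower at an unadjusted p of 0.05).

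Anxa9, a member that in humans lacks the usual calcium-binding residues of the core, was higher by as much. It stood at 7.28, 7.36, 7.67, 7.63 and 7.82 in DKO replicates 1 to 5, and at 7.07, 6.62, 6.57, 7.05 and 6.96 in Control replicates 1 to 5. The groups did not overlap, and Control replicates 2 and 3 were lower than the other 3 Control arrays. The means were 7.55 ± 0.23 in DKO and 6.85 ± 0.24 in Control (SD, n = 5 each), which is 1.62-fold more in DKO (log2 0.70 ± 0.13 SE, adjusted p = 0.0202). Leaving out Control replicate 2 (adjusted p = 0.0573), Control replicate 3 (0.0539), DKO replicate 4 (0.0540) or DKO replicate 5 (0.0527) ended the call, with changes of 0.63 to 0.68. It also ended with unmoderated variance (0.0730) and with both Control replicate 2 and DKO replicate 4 left out (0.129).

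Anxa5, which binds phosphatidylserine on the outer face of dying cells and is used as a probe for it, changed less. Its levels were 12.09, 12.19, 11.91, 11.92 and 12.04 in DKO replicates 1 to 5, and 11.56, 11.72, 11.58, 11.91 and 11.60 in Control replicates 1 to 5. The groups touched without overlapping, since the lowest DKO array (replicate 3, 11.9078) and the highest Control array (replicate 4, 11.9073) were nearly equal. The means were 12.03 ± 0.12 in DKO and 11.68 ± 0.14 in Control (SD, n = 5 each), which is 1.28-fold more in DKO (log2 0.35 ± 0.08 SE, adjusted p = 0.0452). The call ended on leaving out any of 8 arrays and held without Control replicate 4 (adjusted p = 0.0163) or DKO replicate 3 (0.0488). Its highest adjusted p with 1 array left out was 0.1226, without Control replicate 3, and the changes ran from 0.32 to 0.41. It also ended after quantile normalization of the deposited values (0.0563), after subtraction of array medians (0.0607), with unmoderated variance (0.0959), with the Xist level as a covariate (0.0644) and with both Control replicate 2 and DKO replicate 4 left out (0.1279).

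Anxa11, which binds the calcium sensor ALG-2 and the S100 protein calcyclin and tethers RNA granules to lysosomes, showed the smallest of the 5 increases. It stood at 9.77, 9.65, 9.62, 9.78 and 9.76 in DKO replicates 1 to 5, and at 9.49, 9.49, 9.58, 9.44 and 9.47 in Control replicates 1 to 5. The groups did not overlap, and both were tight. The means were 9.72 ± 0.08 in DKO and 9.49 ± 0.05 in Control (SD, n = 5 each), which is 1.17-fold more in DKO (log2 0.22 ± 0.05 SE, adjusted p = 0.0480). The call ended on leaving out any array other than DKO replicate 3, with adjusted p-values up to 0.1163 (without Control replicate 2) and changes of 0.21 to 0.25. It also ended after quantile normalization of the deposited values (0.0917), after subtraction of array medians (0.1229), with the Xist level as a covariate (0.0525) and with both Control replicate 2 and DKO replicate 4 left out (0.2377).

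**Figure D3:**
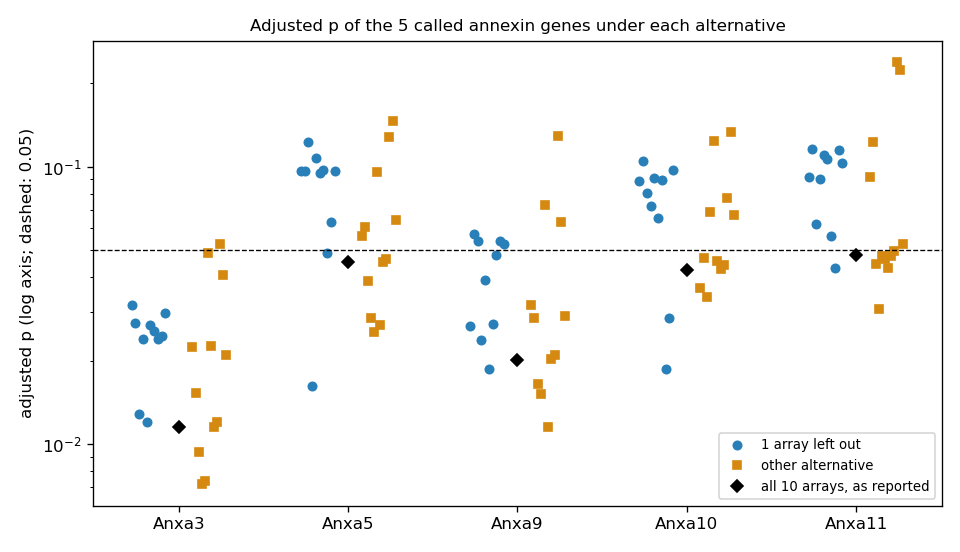
Adjusted p-values of the 5 called annexin genes on a log axis, with all 10 arrays (diamonds), with 1 array left out (circles) and under the other alternatives (squares); the dashed line is 0.05. All circles of Anxa3 lie below the line, while 4 of Anxa9, 8 each of Anxa5 and Anxa10 and 9 of Anxa11 lie above it.

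Among the 5 members that did not pass, Anxa7 and Anxa4 came closest. Anxa7, or synexin, known for aggregating secretory granules, had levels of 8.22, 8.10, 8.31, 8.25 and 8.18 in DKO replicates 1 to 5, and 8.09, 8.17, 8.08, 8.05 and 8.01 in Control replicates 1 to 5. Of the DKO arrays 4 were above the highest Control array and DKO replicate 2 was not. The log2 difference was 0.13 ± 0.05 SE, with a 95% interval of 0.02 to 0.25 (adjusted p = 0.263).

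Anxa4, an annexin of polarised epithelia, measured 10.65, 10.70, 10.82, 10.90 and 10.79 in DKO replicates 1 to 5, and 10.77, 10.57, 10.55, 10.58 and 10.68 in Control replicates 1 to 5. Control replicate 1 lay within the DKO range, and all 5 DKO arrays were above the Control mean. The log2 difference was 0.14 ± 0.06 SE (95% interval 0.0012 to 0.28, adjusted p = 0.332).

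Anxa6, the large member whose core is duplicated, measured 10.77, 10.91, 10.64, 10.66 and 10.76 in DKO replicates 1 to 5, and 10.50, 10.59, 10.56, 10.58 and 10.79 in Control replicates 1 to 5. Control replicate 5 was above 4 of the DKO arrays. The log2 difference was 0.14 ± 0.07 SE (95% interval -0.0071 to 0.29, adjusted p = 0.363). Anxa6 was the only member with 2 clusters, and the dimmer one gave -0.11 ± 0.10 SE (adjusted p = 0.642), so the clusters differed in sign and neither passed.

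Anxa2, which pairs with S100a10 on membranes and there binds plasminogen and its activator, measured 10.57, 10.86, 10.40, 10.73 and 10.74 in DKO replicates 1 to 5, and 10.43, 10.78, 10.29, 10.29 and 10.67 in Control replicates 1 to 5. The groups overlapped widely. The log2 difference was 0.17 ± 0.12 SE (95% interval -0.08 to 0.42, adjusted p = 0.527).

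Anxa1, a glucocorticoid-induced anti-inflammatory protein, varied more among DKO arrays than between the groups. Its levels were 8.85, 9.001, 8.63, 9.50 and 9.30 in DKO replicates 1 to 5, and 9.004, 9.08, 8.71, 8.83 and 9.06 in Control replicates 1 to 5. DKO replicates 4 and 5 were above all Control arrays and DKO replicate 3 below them all. The log2 difference was 0.12 ± 0.15 SE (95% interval -0.22 to 0.46, adjusted p = 0.736), and it was 0.0079 without DKO replicate 4.

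**Figure D4:**
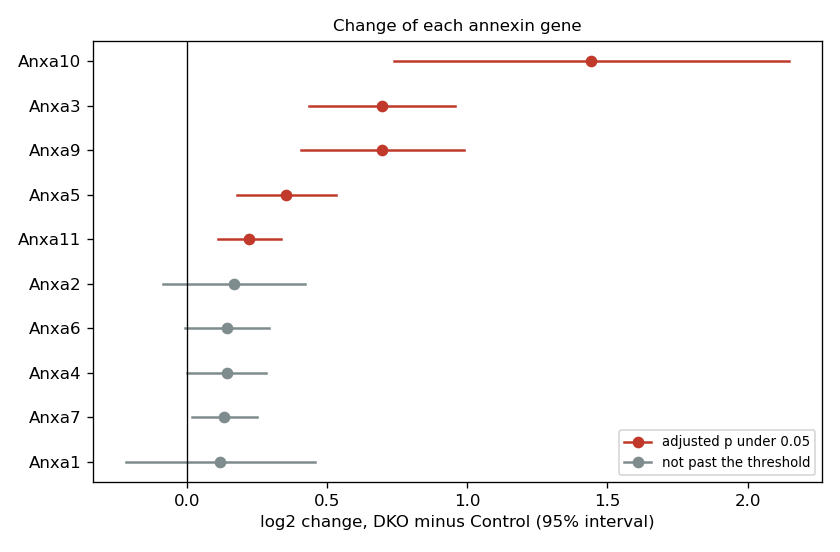
Log2 change of each annexin gene, DKO minus Control, with its 95% interval from the limma fit; red marks an adjusted p under 0.05. The intervals of Anxa10, Anxa3 and Anxa9 lie above those of Anxa4, Anxa6 and Anxa7, while those of Anxa5 and Anxa11 overlap theirs.

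The size of the change varied within the family, although differences between members were not tested. The interval of Anxa3 (0.44 to 0.96), that of Anxa9 (0.41 to 0.99) and that of Anxa10 (0.74 to 2.15) lay above the intervals of Anxa4, Anxa6 and Anxa7, whose upper ends were 0.28, 0.29 and 0.25. Those of Anxa1 and Anxa2 reached 0.46 and 0.42 and overlapped the Anxa3 and Anxa9 intervals (Anxa2 that of Anxa9 only). The members did not peak in the same arrays. DKO replicate 2 held the highest DKO level of 4 members (Anxa2, Anxa3, Anxa5 and Anxa6), DKO replicate 4 that of 3 (Anxa1, Anxa4 and Anxa11), and DKO replicates 1, 3 and 5 that of Anxa10, Anxa7 and Anxa9. Among Control arrays, replicate 3 was lowest for Anxa1, Anxa2, Anxa3, Anxa4 and Anxa9.

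Cell type markers moved with the groups too. Of 12 measured duct markers 5 were higher in DKO, among them Krt7 (1.22, adjusted p = 0.00113) and Cldn4 (1.37, adjusted p = 0.00227), which are the 2 largest increases of the list. Over all genes, limma called 2.08% higher and 0.366% lower, and 9.18% and 5.66% at an unadjusted p of 0.05. At that unadjusted level 8 of the duct markers were higher and 1 lower. The lower one was Sox9, a transcription factor gene of duct and progenitor cells (-0.26, adjusted p = 0.149), whose 5 DKO arrays lay below all Control arrays. Onecut1 (-0.10) and Muc1 (-0.03) also had differences below 0. The mean of the 12 duct markers was 10.15 to 10.29 in DKO and 9.74 to 9.84 in Control. Of 10 acinar markers 1, the transcription factor gene Rbpjl, was lower (-0.45, adjusted p = 0.0225). Among these 10, 0 had a change above 0, and 0 were higher and 3 lower at an unadjusted p of 0.05. The mean of the 9 islet markers was 10.65 to 10.80 in DKO and 10.89 to 11.06 in Control, with 0 past limma's threshold (0 higher and 3 lower at an unadjusted p of 0.05). The mean of 7 striated muscle markers was 6.40 to 6.69 in DKO and 6.17 to 6.35 in Control, and 1 of them, Tnnc1, a troponin gene, was higher (2.26, adjusted p = 0.00118). The other 6 changed by only -0.06 to 0.12 and did not pass limma's test (adjusted p = 0.659 to 0.955), so the muscle mean reflects Tnnc1. The means of fibroblast, smooth muscle, endothelial, macrophage, mesothelial and adipocyte markers overlapped between the groups. The adipocyte mean (6 genes) was 9.58 in DKO replicate 2, which held the highest DKO level of Anxa2, Anxa3, Anxa5 and Anxa6, against 6.94 to 8.76 in the other DKO arrays and 8.09 to 8.58 in Control. More cells of a type and more RNA per cell cannot be told apart in whole pancreas, and the part of the duct and adipocyte transcripts in the annexin result was not tested.

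Each called member was then set against the genes whose level followed it most closely over the 10 arrays, by Pearson's r among the genes with an SD of at least 0.2. These values are a description, and group differences add to each r. The genes given were the highest of 3902 genes (3903 for Anxa11) over only 10 arrays. How high the best r would be among so many unrelated genes was not tested. For Anxa3 these were Sod3, a secreted superoxide dismutase (r = 0.97), Erbb2, a receptor tyrosine kinase (0.97), and the actin crosslinker gene Flna (0.97). For Anxa9 they were Arhgap24 (0.98), the tetraspanin gene Tspan8, which is also one of the duct markers (0.98), and Nme5 (0.97). For Anxa5 they were Atp13a4, Rhov and Gpx8 (0.96, 0.96 and 0.95), and for Anxa11 Arhgef2 (0.97), Cds1 (0.96) and Smim3 (0.96). For Anxa10 they were the choline transporter-like gene Slc44a2, Cox7a1 and the lymphocyte receptor gene Cd27 (0.96, 0.96 and 0.95).

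With group means removed, the closest genes were largely others, again picked as the highest r among as many genes. Anxa10 deviated most like the claudin gene Cldn6 (r = 0.92), which was itself 0.98 higher in DKO (adjusted p = 0.00109), then like Cox7a1 and Rasgrp1 (0.90 and 0.89). Anxa5 deviated most like Cks2, Reep4 and Ccnf (0.97, 0.96 and 0.95), genes known for work in mitosis or the cell cycle, whose own changes were 0.12, 0.07 and -0.12 with adjusted p-values of 0.751 to 0.833. Anxa11 deviated most like Arhgef2 again (0.87), then Taf4b and G530011O06Rik (0.85 and 0.84). Anxa3 deviated most like the proteoglycan gene Vcan (0.92), Sod3 (0.92) and the mechanosensitive channel gene Piezo1 (0.91), and Anxa9 most like ccdc198, Ddb2 and Fancl (0.94 each).

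Genes listed beside the annexins were examined by role, from a list of 40 genes of which 35 were measured. The list holds binding partners of annexins, genes of the plasmin system and other calcium-dependent membrane binders, and all are called partners here. Of the 35, 2 were higher, 0 lower and 33 did not pass limma's test, which called 2.08% of all genes higher and 0.366% lower. The median log2 change was 0.10, with 25 of 35 above 0, as were 47.6% of all genes, whatever their level. At an unadjusted p of 0.05, 14 were higher and 2 lower, while 9.18% of all genes were higher and 5.66% lower at that level.

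S100 proteins are small calcium-binding proteins that clasp annexin heads. Of 7 measured, 0 passed limma (1 higher and 1 lower at an unadjusted p of 0.05). S100a11, the partner of annexin A1, stood at 12.30, 12.21, 12.21, 12.24 and 12.26 in DKO replicates 1 to 5, and at 11.91, 12.17, 11.93, 11.90 and 12.11 in Control replicates 1 to 5. Its groups did not overlap, but the log2 difference of 0.24 ± 0.06 SE did not pass (adjusted p = 0.0792). S100a10, the partner of annexin A2, averaged 11.40 ± 0.12 in DKO and 11.35 ± 0.16 in Control (SD, n = 5 each), a difference of 0.05 with a 95% interval of -0.13 to 0.24. S100b, a glial member, was lower by -0.21 (adjusted p = 0.246).

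Among the genes listed as other binding partners 1 of 9 was higher, and its protein shares a lipid ligand with annexin A5. Mfge8, a secreted protein that, like annexin A5, binds phosphatidylserine on dying cells, stood at 10.999, 10.73, 10.76, 10.75 and 10.82 in DKO replicates 1 to 5, and at 10.44, 10.34, 10.23, 10.37 and 10.43 in Control replicates 1 to 5. The groups did not overlap, and the increase was 1.37-fold (log2 change 0.45 ± 0.06 SE, adjusted p = 0.00423). Plscr1, a phospholipid scramblase, was 0.27 higher and did not pass (adjusted p = 0.0972). Pdcd6, the gene of ALG-2, which binds annexins A7 and A11, was 0.24 higher (adjusted p = 0.142).

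Of the 5 measured genes of the plasmin system 1 was higher. Plgrkt, a plasminogen receptor of the cell surface, stood at 8.62, 8.64, 8.39, 8.63 and 8.73 in DKO replicates 1 to 5, and at 8.22, 8.22, 7.95, 8.11 and 8.07 in Control replicates 1 to 5. No DKO array reached down to the Control range, and the increase was 1.40-fold (log2 change 0.49 ± 0.08 SE, adjusted p = 0.00725). Plaur, the urokinase receptor, was 0.25 higher and did not pass (adjusted p = 0.240). Plg, the liver-made plasminogen, was 9.69 in DKO replicate 1, the array rich in hepatocyte transcripts, 5.52 to 5.98 in the other DKO arrays and 5.35 to 5.86 in Control.

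Copines, ferlins and extended synaptotagmins bind membranes in a calcium-dependent way through C2 domains rather than annexin repeats. Of 8 copines and 6 ferlins and extended synaptotagmins measured, 0 passed limma (5 higher and 1 lower at an unadjusted p of 0.05). Myof, or myoferlin, came nearest at 0.48 ± 0.13 SE (adjusted p = 0.0846), with Esyt1 at 0.20 (adjusted p = 0.191), Cpne3 at 0.22 (adjusted p = 0.225) and Cpne4 at -0.20 (adjusted p = 0.162).

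**Figure D5:**
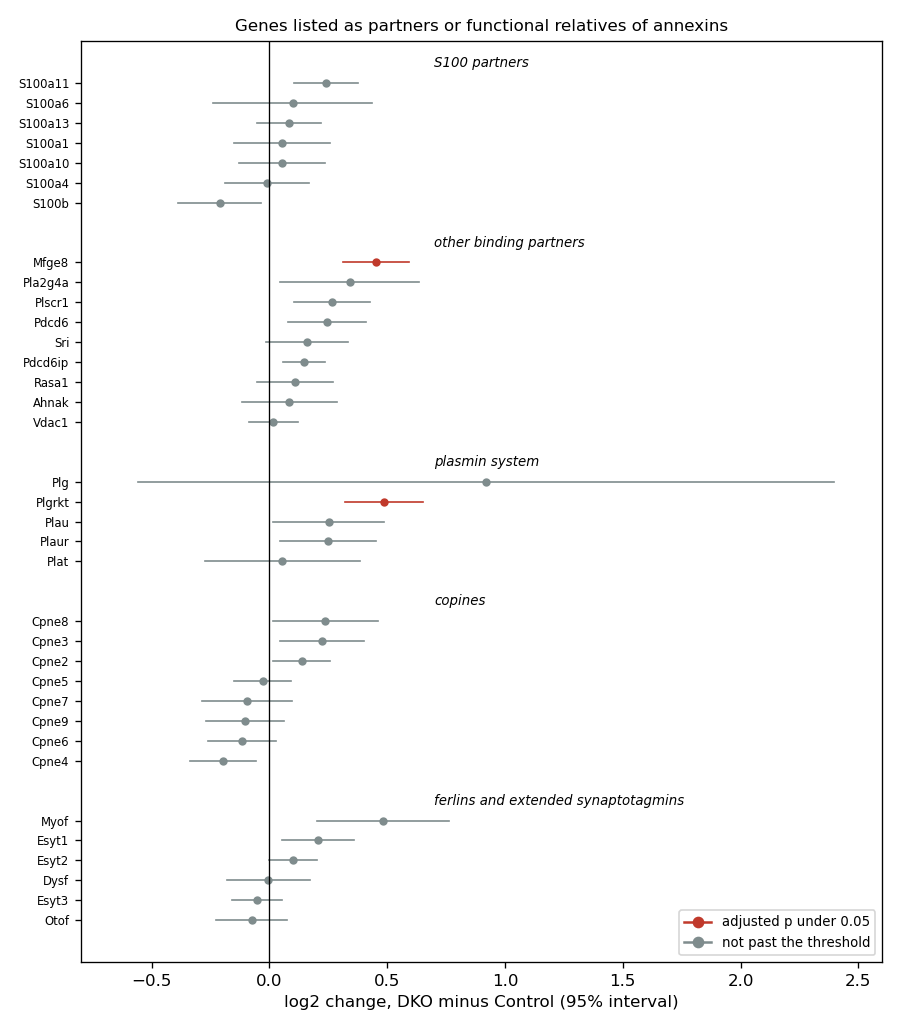
Log2 change, DKO minus Control, with its 95% interval for the 35 measured genes listed as partners or functional relatives of annexins, grouped by role; red marks an adjusted p under 0.05. Mfge8 and Plgrkt are past the threshold, and the interval of Plg is the widest, its DKO replicate 1 standing at 9.69.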

How the data were processed

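Pancreas RNA of 5 DKO and 5 Control samples was measured on arrays. Per the submitters' processing notes, Affymetrix Expression Console made the values; its version and settings, and the genome build, were not given in the sources used here. Deposited values are log2 intensities per transcript cluster, 2.79 to 13.94, with array medians of 7.12 to 7.15, and were used as deposited. The number of arrays limits the precision (median SE 0.0754).

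Of 35556 clusters 21789 had 1 gene symbol. The brightest per gene gave 19938 genes, with symbols updated through a RefSeq table (GRCm38.p6, 21698 clusters matched). DKO was set against Control in limma 3.58.1 under R 4.3.3 (lmFit, eBayes, 10.96 total degrees of freedom, Benjamini-Hochberg over all genes), and all adjusted p-values and SEs come from it. Data of the 19938 genes were also simulated as independent normal values. Each gene had the same SD in both groups, and every changed gene was raised in DKO. The fit recovered 70.1% of 67 genes changed by 0.5, 95.5% of 67 changed by 1 and 100% of 66 changed by 2 (log2). It made 8 false calls. The real arrays differ from this setting, for example in the Anxa10 SD of 0.81 in DKO and 0.17 in Control.

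Members, partner and marker lists and alternatives were chosen with earlier results of these data known. The text names all members, called partners or the 2 with the smallest p per role, and the 3 most alike genes per called member; S100a10, Pdcd6, Plg and the markers were named after their values were seen. The alternatives were other normalizations, filters on dim genes, variance models, array weights, other uses of a gene's clusters, leaving out arrays, a replicate block and Xist as a covariate. Protein sequences were not used here.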

Additional observations from a re-analysis of the deposited data

Results flagged for a closer look

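In 2 of 40 groups of 5 arrays (10 members and 10 named partners in each group), 1 array stood apart from the other 4 by Dixon's criterion, which chance meets in about 1 of 20 groups. Anxa3 was 9.98 in DKO replicate 2 and 9.61 to 9.71 in the other DKO arrays. Without that array its change was 0.63 (limma adjusted p = 0.0256). Plaur was 8.10 in DKO replicate 4 and 7.63 to 7.76 in the other DKO arrays, and its change without that array was 0.17 (adjusted p = 0.386).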

How the results depend on the processing

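Over 218 values of the 10 members under the alternatives, all 218 kept their sign and 169 their side of the threshold. The 5 members called were 3 after quantile normalization of the deposited values or subtraction of array medians (Anxa3, Anxa9 and Anxa10 each time), and 3 (Anxa3, Anxa5 and Anxa11) without the dimmest 50% of genes, a filter that removed Anxa9 and Anxa10. They were 2 with unmoderated variance (Anxa3 and Anxa11) and 2 with the Xist level as a covariate (Anxa3 and Anxa9). Leaving out 1 array gave 1 to 5. With both Control replicate 2 and DKO replicate 4 left out, limma called 0 (6 higher at an unadjusted p of 0.05), with fewer arrays in the fit. The replicate block gave 1 (Anxa3), and 178 genes in all against 487. The labels tie same-numbered arrays by their number alone. Their deviations correlated at -0.27, -0.20, 0.29, -0.22 and 0.21, and not every array correlated best with its own number. Such correlations over all genes cannot show whether arrays shared a litter or a batch, so pairing is not excluded. The partner count was 2 to 3 under these alternatives. S100a11 passed without the dimmest 50% of genes (0.0499), with trended and robust variance (0.0436) and without Control replicate 2 (0.0493), and Plscr1 with the mean over its clusters (0.0336) and without DKO replicate 3 (0.0386). The causes were not tested.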

Other observations

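Anxa8 and Anxa13 were also measured but are not among the 10 members. Anxa13, an annexin of intestinal and kidney epithelium whose gene lies on chromosome 15, as does Stk3, stood at 10.02, 10.03, 9.58, 9.40 and 9.81 in DKO replicates 1 to 5, and at 7.42, 9.48, 9.26, 9.16 and 7.80 in Control replicates 1 to 5. Control replicates 1 and 5 were thus far below all other arrays. They were also the 2 Control arrays with low Xist (5.13 and 5.75), while DKO replicates 2, 3 and 5, with Xist at 5.45, 5.39 and 5.29, had high Anxa13. The log2 difference was 1.14 ± 0.38 SE and did not pass limma's test (adjusted p = 0.175). Anxa8 averaged 6.97 ± 0.29 in DKO and 6.65 ± 0.15 in Control (SD, n = 5 each), a difference of 0.32 (adjusted p = 0.290).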
